A study of Homo sapiens with 4 samples.

Results

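The 55 genes described here build the centromere and kinetochore, run the spindle checkpoint, start anaphase, or drive entry into mitosis as kinases, cyclins and phosphatases. They were taken by name from a list and matched through their RefSeq accessions to 55 of the 22841 gene symbols in the count tables. All 55 passed the filter on low counts and were among the 13247 genes tested. The cells were PC-3M-luc, a metastatic human prostate carcinoma line with a luciferase reporter, at passages 17 to 20. One group of 2 libraries came from cells given RNAi against LSD1, the histone demethylase encoded by KDM1A, and the other group of 2 from cells given a control RNAi. Both groups were harvested 72 h after transfection. The series text writes KO, while the sample labels describe a transient RNAi transfection and do not say which RNAi sequences were used, so the groups are called knockdown and control. The labels name biological replicates and give no further source for them, so p-values measure only the spread between these libraries.

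The kinetochore is the protein plate that joins a chromosome to spindle microtubules. Its inner layer sits on nucleosomes that carry the histone variant CENPA, and its outer layer holds the microtubule-binding NDC80 complex. Kinetochores without a microtubule send out a checkpoint signal that keeps CDC20 from activating the anaphase-promoting complex (APC/C), a ubiquitin ligase. Once the signal ends, the ligase marks securin and B-type cyclins for destruction, separase cuts cohesin and the cell leaves mitosis. Many of these genes are transcribed mainly in late S, G2 and M phase, so their mRNA is abundant in dividing populations.

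Promoters of such genes often carry a CCAAT box, bound by NF-Y, and a cell cycle homology region (CHR), bound by the MuvB core in the DREAM and B-MYB complexes. RefSeq promoter windows of GRCh38.p14, reaching from 250 bases before to 50 bases after the annotated start, were found for 45 of the 55 genes. The stretches that follow show these letters in capitals (CCAAT or its reverse complement ATTGG, and TTTGAA or its reverse complement TTCAAA) in 5 genes that fell and in CDK1, which did not pass the test, all picked for display after the letters were found. They are written 5′ to 3′ on the gene's strand and lie before the start. They are cut where an annotated exon begins, except that ESPL1 runs up to the start and CDK1 was cut at 60 bases.
ESPL1, plus strand, chr12:53268239-53268298: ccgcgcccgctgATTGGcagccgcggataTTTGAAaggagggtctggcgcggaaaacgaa
SPC25, minus strand, chr2:168890446-168890525: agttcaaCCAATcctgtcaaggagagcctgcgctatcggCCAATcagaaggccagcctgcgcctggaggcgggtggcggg
CDC20, plus strand, chr1:43358876-43358954: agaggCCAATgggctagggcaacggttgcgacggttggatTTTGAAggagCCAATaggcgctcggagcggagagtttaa
ZWINT, minus strand, chr10:56361276-56361379: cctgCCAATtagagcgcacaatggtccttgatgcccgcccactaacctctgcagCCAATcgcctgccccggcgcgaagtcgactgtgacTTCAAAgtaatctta
CCNB2, plus strand, chr15:59105021-59105077: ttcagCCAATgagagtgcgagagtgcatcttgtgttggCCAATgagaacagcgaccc
CDK1, plus strand, chr10:60778161-60778220: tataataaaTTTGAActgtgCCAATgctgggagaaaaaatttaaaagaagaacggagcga

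The letters CCAAT were found on either strand in 39 of the 59 windows of these genes, or 66.1%, against 34.6% of all 35116 windows in the table. TTTGAA or TTCGAA was found in 29 windows, or 49.2%, against 16.4% of all windows and 12.1% of the windows of tested genes. The CHR matches lay near the start: 77.1% of them began within 50 bases of it, against 27.3% of the CHR matches in all windows. Pairs of CCAAT letters on the same strand that begin 31 to 33 bases apart occurred in 5 windows, or 8.47%. Their share was 0.849% of all windows and 1.23% of the windows of tested genes, and the spacing was picked after the sequences were seen. SPC25 and CCNB2 above hold such a pair, as do CCNB1, HMMR and the second window of CDK1, which did not pass the test. Of the genes with a window, 21 of the 34 that fell (61.8%) and 5 of the 11 that did not pass (45.5%) held CHR letters. The share was 15.7% over tested genes and 18.8% over all genes called lower. CCAAT letters were held by 26 that fell (76.5%) and 6 that did not pass (54.5%), against 43.3% of tested genes. For at least 2 CCAAT matches the order was the other way, with 13 (38.2%) and 6 (54.5%), against 16.4% of tested genes. The second CDK1 window holds CCAAT letters at -78 and -46 and CHR letters at -69, -13 and 10 from its start. A match is a run of letters, and binding was not measured.

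**Figure D1:**
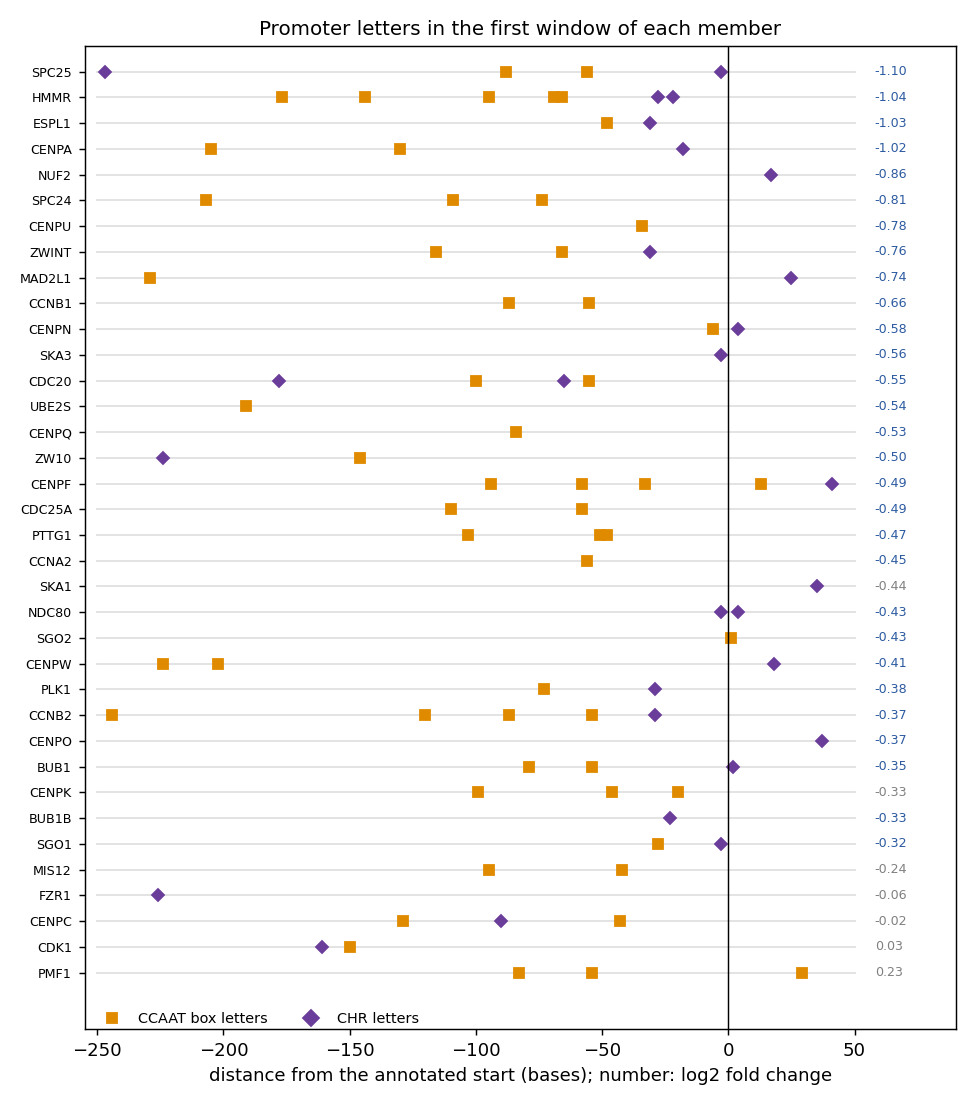
Positions of CCAAT letters (squares) and CHR letters (diamonds) in the first promoter window of each gene with a match, as distance in bases from the annotated start (x axis), with genes ordered by log2 fold change (number at right, blue where the gene was called lower). CHR letters gather near the start. Some genes that did not pass the test hold letters too: PMF1 holds CCAAT letters only, and CDK1 holds CCAAT letters at -150 and CHR letters at -161.

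The libraries held 12040681 and 12831374 gene counts in knockdown cells and 12474183 and 12410719 in control cells, so 3 counts correspond to 0.234 to 0.249 CPM (counts scaled to a common library size with TMM factors). KDM1A itself was at 7.59% of its control level (log2 fold change -3.72, standard error 0.0974, edgeR quasi-likelihood test, adjusted p = 2.32e-24). Chi-square values averaged 4.50 over genes for the knockdown pair and 5.24 for the control pair, so no library repeats another, and 28.3 to 30.9 across groups. Of 4 genes that mark the carcinoma line, the keratin gene KRT8 and the epithelial cadherin gene CDH1 were higher in knockdown cells (1.39-fold, adjusted p = 1.83e-05, and 2.42-fold, adjusted p = 3.64e-10), the mesenchymal filament gene VIM was lower (1.26-fold, adjusted p = 0.00189) and the keratin gene KRT18 did not pass (adjusted p = 0.268). Their summed counts, mostly VIM, were between 17651 and 18581 in knockdown libraries and between 19533 and 19587 in control libraries. KLK2, KLK3, PTPRC, CD3E, HBB and CDH5 had 0 counts in all 4 libraries. COL1A1, a fibroblast collagen gene, was the most abundant of 4 endothelial and fibroblast markers, whose summed counts were 357 and 430 in knockdown libraries and 403 and 453 in control libraries.

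Across the whole set, 43 of the 55 genes fell after LSD1 knockdown, 0 rose and 12 did not pass at an adjusted p under 0.05 (edgeR quasi-likelihood test, adjusted over all genes tested). Among all tested genes 17.9% were called lower and 18.2% higher, or 36.1% in either direction. DESeq2 called 37 of the 55 lower, against a background of 13.0%, and limma-voom 41, against 17.8%. At an unadjusted p under 0.05, PMF1 was the one gene of the set that was higher, and DESeq2 and limma-voom called 0 higher. The median log2 fold change of the 55 genes was -0.48, against 0.0024 over all tested genes. Falls were mostly moderate: the median among the 43 that fell was -0.54, or 1.45-fold, and 6 fell by at least 2-fold, against 1.67% of tested genes. Those 6 were CENPI, SPC25, HMMR, ESPL1, CENPA and UBE2C. Several lay near the 2-fold cut. Without a normalization factor, UBE2C, CENPA and ESPL1 fell short of it, at log2 fold changes of -0.967, -0.983 and -0.993. Without knockdown replicate 2, HMMR and SPC25 fell short of it, at -0.928 and -0.964. Both knockdown libraries lay below both control libraries for 51 of the 55 genes, against 33.4% of tested genes. The exceptions were PMF1, whose knockdown libraries both lay above both control libraries (as in 33.7% of tested genes), and CDK1, FZR1 and CENPC, whose groups overlapped.

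The summed level of the 55 genes was 2326 and 2278 CPM in knockdown libraries and 3224 and 3222 CPM in control libraries, so the knockdown sum was 71.4% of the control sum. In bulk RNA, fewer cells in G2 and M phase cannot be told apart from less of these transcripts per cell. Per length, on a scale of CPM per kilobase of the matched GENCODE transcript, UBE2C ranked first of the 55 in control cells at 94.9 and 4th in knockdown cells at 47.4. PTTG1 ranked second in control cells at 82.8 and first in knockdown cells at 59.96. CENPC was lowest in control cells at 1.32 CPM per kilobase.

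**Figure D2:**
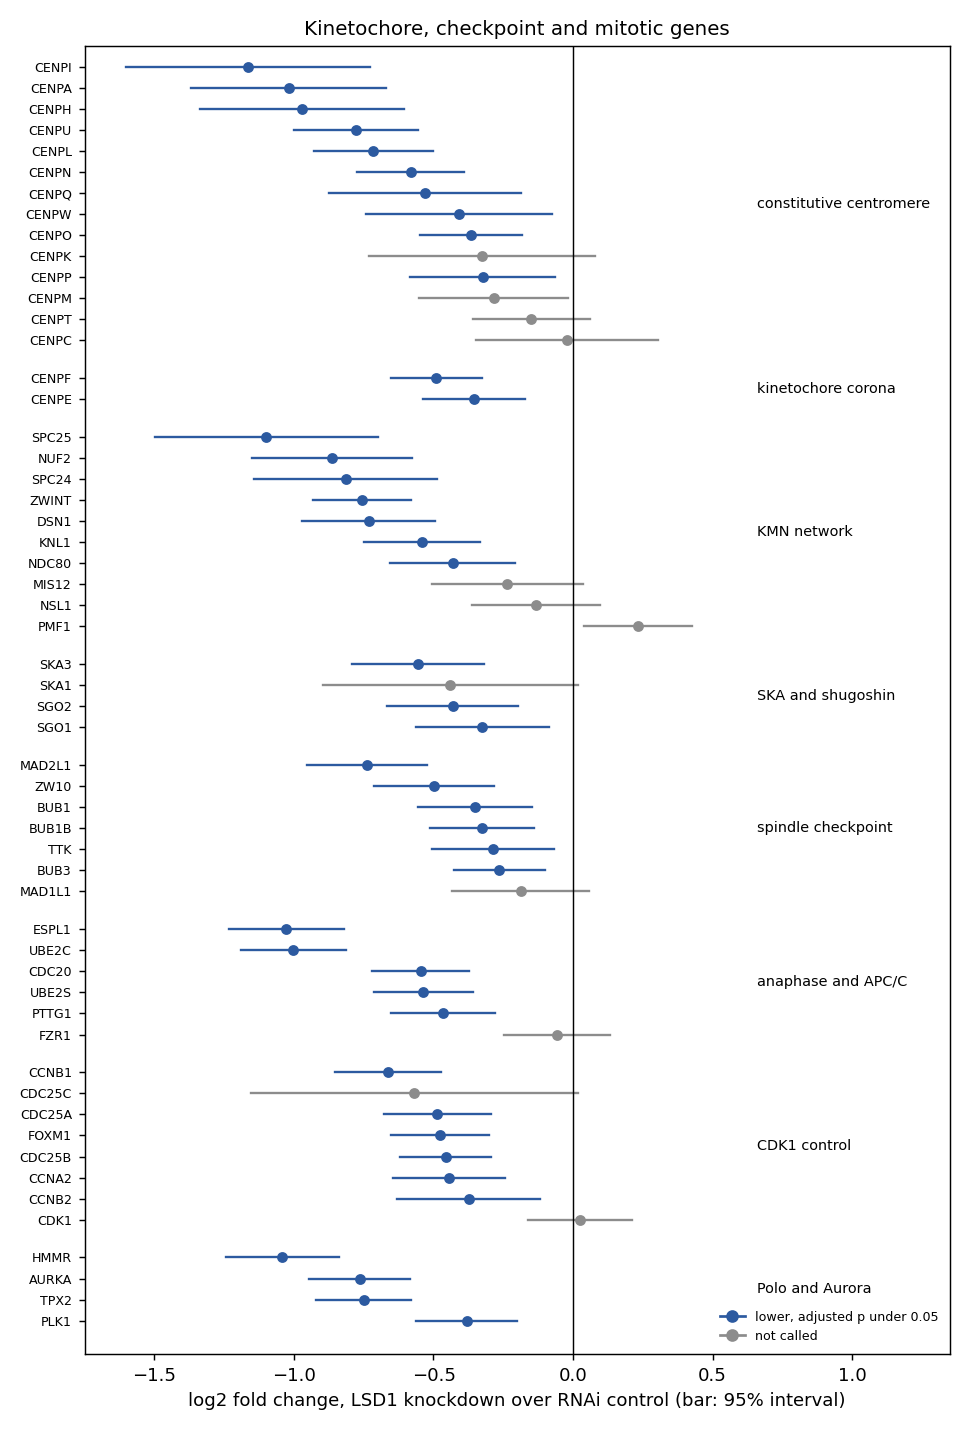
Log2 fold change of LSD1 knockdown over RNAi control (x axis, points) with 95% intervals (bars) for the 55 genes, grouped by role; blue genes were called lower and grey genes were not called. Estimates run from -1.17 for CENPI to 0.23 for PMF1, and each class holds genes that fell.

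Genes of the constitutive centromere, the layer that stays on the chromosome through the cell cycle, fell in 10 of 14 cases, with a median log2 fold change of -0.47. CENPA, the histone variant that marks the centromere, had 5.73 and 5.80 CPM in knockdown libraries and 10.5 and 12.8 CPM in control libraries. That is a 2.03-fold fall (log2 fold change -1.02, standard error 0.172, adjusted p = 1.73e-05), and the 2 knockdown values lay closer together than the control values. CENPU, which helps bring PLK1 to kinetochores, had 22.02 and 20.02 CPM in knockdown libraries and 37.0 and 34.99 CPM in control libraries, a 1.71-fold fall (adjusted p = 1.09e-06). CENPL and CENPN form a pair that contacts the CENPA nucleosome. CENPL had 23.6 and 24.1 CPM in knockdown libraries and 38.0 and 40.3 CPM in control libraries (1.64-fold lower, adjusted p = 2.11e-06). CENPN had 37.6 and 36.9 CPM in knockdown libraries and 55.7 CPM in both control libraries (log2 fold change -0.58, adjusted p = 9.4e-06). The groups did not overlap in these 4 genes, nor in any of the 43 genes that fell. A call with 2 libraries a group favours such separation, so it adds no support of its own.

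In the CENPH, CENPI, CENPK and CENPM subcomplex, CENPI fell by 1.17 and CENPH by 0.97 on the log2 scale, while CENPK and CENPM did not pass, at -0.33 and -0.28. The 95% interval of CENPK, from -0.73 to 0.08, still includes a fall as large as that of CENPL. In the group of CENPO, CENPP, CENPQ and CENPU all 4 fell, with CENPO at -0.37, CENPP at -0.32 and CENPQ at -0.53. CENPC, the long scaffold that binds the CENPA nucleosome and the outer kinetochore, had 8.76 and 9.28 CPM in knockdown libraries and 8.86 and 9.47 CPM in control libraries. Its groups overlapped, and its log2 fold change of -0.02 had a 95% interval from -0.35 to 0.31. CENPT, the other scaffold towards the outer kinetochore, did not pass at -0.15, whereas its histone-fold partner CENPW fell by 0.41. The calls of CENPP (adjusted p = 0.0458) and CENPW (adjusted p = 0.0485) were near the threshold. Both were lost with DESeq2, limma-voom, no filter, no normalization factor and summed rows. CENPP was also lost without either knockdown library or without control replicate 1, and CENPW without knockdown replicate 1 or either control library. CENPQ lost its call with DESeq2, without knockdown replicate 2 and without control replicate 1.

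Both corona genes fell. CENPF, a very large coiled-coil protein of the outer kinetochore, had 200.1 and 194 CPM in knockdown libraries and 269.9 and 284 CPM in control libraries, a 1.40-fold fall (adjusted p = 1.16e-05). CENPE, the kinesin that carries chromosomes towards the spindle equator, had 72.9 and 63.6 CPM in knockdown libraries and 87.2 and 87.3 CPM in control libraries (1.28-fold lower, adjusted p = 0.00206). The lower of the CENPE knockdown values came from replicate 2, and without that library its call was lost (log2 fold change -0.26, adjusted p = 0.0581).

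The KMN network, made of KNL1 and the MIS12 and NDC80 complexes, is the part that binds microtubules, and 7 of its 10 genes fell. All 4 subunits of the NDC80 complex fell. SPC25, at its centromere end, had 4.58 and 3.79 CPM in knockdown libraries and 7.97 and 9.96 CPM in control libraries, a 2.14-fold fall (adjusted p = 4.1e-05). NUF2, at the microtubule end, had 10.2 and 9.28 CPM in knockdown libraries and 18.2 and 17.3 CPM in control libraries (1.82-fold lower, adjusted p = 9.98e-06). SPC24 and NDC80 fell by 0.81 and 0.43 on the log2 scale. ZWINT, the partner of KNL1, had 79.2 and 85.02 CPM in knockdown libraries and 145 and 132 CPM in control libraries. Its 1.69-fold fall had the smallest adjusted p of the network (2.32e-08), and KNL1 fell by 0.54 on the log2 scale.

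In the MIS12 complex, which joins the inner layer to KNL1 and NDC80, 1 of 4 genes fell. DSN1 had 16.7 and 16.8 CPM in knockdown libraries and 27.6 and 27.99 CPM in control libraries, a 1.66-fold fall (adjusted p = 7.71e-06). MIS12 and NSL1 did not pass, at -0.24 and -0.13, with 95% intervals from -0.51 to 0.04 and from -0.36 to 0.10. PMF1 had 49.4 and 54.7 CPM in knockdown libraries and 43.2 and 45.5 CPM in control libraries, with both knockdown values above both control values. Its log2 fold change of 0.23 did not pass the threshold (adjusted p = 0.0553). It passed with the replicate block (adjusted p = 0.0362), with summed rows (0.0485), without a normalization factor (0.0273) and without knockdown replicate 1 (0.0328). Its exons overlap the readthrough gene PMF1-BGLAP over 587 nucleotides.

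Of the SKA and shugoshin genes, 3 of 4 fell. SKA3, a subunit of the complex that tracks microtubules beside NDC80, had 20.7 and 19.3 CPM in knockdown libraries and 31.6 and 27.2 CPM in control libraries (1.47-fold lower, adjusted p = 0.000295). Its partner SKA1 did not pass at -0.44, where 44 to 60 counts per library gave a standard error of 0.225. SGO2, a protector of centromeric cohesin, had 27.3 and 27.4 CPM in knockdown libraries and 41.8 and 31.9 CPM in control libraries (adjusted p = 0.00327). SGO1, its paralogue, had 20.5 and 19.2 CPM in knockdown libraries and 26.2 and 23.5 CPM in control libraries (adjusted p = 0.0295). In both genes the knockdown values lay below the control values, with control replicate 1 the highest. Without control replicate 1 both calls were lost, at adjusted p = 0.227 for SGO2 and 0.215 for SGO1. SGO1 was also lost without knockdown replicate 2 (adjusted p = 0.161), with DESeq2 (adjusted p = 0.149) and without a normalization factor (adjusted p = 0.0561).

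Spindle checkpoint genes fell in 6 of 7 cases, with a median log2 fold change of -0.33. MAD2L1, which binds and holds back CDC20, had 22.8 and 24.7 CPM in knockdown libraries and 40.9 and 38.5 CPM in control libraries, a 1.67-fold fall (adjusted p = 1.38e-06). ZW10, of the complex that brings MAD1 and MAD2 to the kinetochore, had 26.5 and 24.7 CPM in knockdown libraries and 34.9 and 37.3 CPM in control libraries (1.41-fold lower, adjusted p = 0.000366). These were the only 2 checkpoint genes called in all 12 alternative settings tried. MAD1L1, the anchor of MAD2L1, did not pass at -0.19, with a 95% interval from -0.43 to 0.06.

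The kinases of the checkpoint and their adaptor fell by 1.20-fold to 1.28-fold. BUB1B, the kinase-like subunit of the mitotic checkpoint complex, had 56.5 and 52.9 CPM in knockdown libraries and 65.4 and 71.7 CPM in control libraries (1.25-fold lower, adjusted p = 0.00529). BUB1, a kinase that docks other checkpoint proteins, had 52.2 and 42.4 CPM in knockdown libraries and 57.7 and 62.7 CPM in control libraries (1.28-fold lower, adjusted p = 0.00569). BUB3, their shared adaptor, fell 1.20-fold and the kinase gene TTK 1.22-fold. BUB1B, BUB1, BUB3 and TTK each lost the call without control replicate 2, where BUB1B had an adjusted p of 0.0921 and BUB1 of 0.0594. BUB1, BUB3 and TTK also lost it without knockdown replicate 2, where BUB1 had an adjusted p of 0.164, and TTK without control replicate 1, with DESeq2, with no filter and without a normalization factor.

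Genes of the metaphase to anaphase transition held 2 of the 6 largest falls. UBE2C, the conjugating enzyme that starts ubiquitin chains for the APC/C, had 41.8 and 38.8 CPM in knockdown libraries and 79.3 and 81.99 CPM in control libraries. Its 2.003-fold fall (standard error 0.0920 on the log2 scale) had the smallest adjusted p of the 55 genes, 2.53e-10. UBE2S, which extends those chains, had 59.4 and 61.1 CPM in knockdown libraries and 86.96 and 87.9 CPM in control libraries (1.45-fold lower, adjusted p = 1.06e-05). ESPL1, the separase that cuts cohesin, had 24.8 and 24.3 CPM in knockdown libraries and 48.8 and 51.3 CPM in control libraries, a 2.04-fold fall (adjusted p = 1.07e-09). PTTG1, the securin that holds separase inactive, fell by 0.47 on the log2 scale (adjusted p = 0.000146).

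Of the APC/C activators, CDC20 fell and FZR1 did not pass the test. CDC20, which activates it in mitosis, had 78.8 and 79.8 CPM in knockdown libraries and 120.05 and 111.7 CPM in control libraries (1.46-fold lower, adjusted p = 5.35e-06). FZR1, which activates it from late mitosis into G1, had 54.4 and 61.9 CPM in knockdown libraries and 58.7 and 62.5 CPM in control libraries. The FZR1 groups overlapped, and its log2 fold change of -0.06 (adjusted p = 0.664) had a 95% interval from -0.25 to 0.13. That interval does not reach the CDC20 interval of -0.72 to -0.37.

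Of CDK1 and its control genes, 6 of 8 fell and CDK1 was one of those that did not pass. CDK1, the kinase that drives mitosis, had 57.96 and 53.9 CPM in knockdown libraries and 54.3 and 55.5 CPM in control libraries. Its groups overlapped, and its log2 fold change of 0.03 (adjusted p = 0.856) had a 95% interval from -0.16 to 0.21. CCNB1, its main mitotic cyclin, had 71.1 and 61.9 CPM in knockdown libraries and 97.6 and 112.9 CPM in control libraries, a 1.58-fold fall (adjusted p = 9.92e-07). CCNA2 and CCNB2, the other cyclins of G2 and mitosis, fell by 0.45 and 0.37 on the log2 scale. CCNB2 lost its call without knockdown replicate 2, without control replicate 1 and with DESeq2.

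The CDC25 phosphatases, which switch CDK1 on, and FOXM1, a transcription factor of G2 and M phase genes, also fell in 3 of 4 cases. CDC25B had 178 and 181 CPM in knockdown libraries and 239.8 and 253 CPM in control libraries (1.37-fold lower, adjusted p = 3.31e-05). CDC25A had 38.9 and 38.1 CPM in knockdown libraries and 55.4 and 52.4 CPM in control libraries (1.40-fold lower, adjusted p = 0.000122). FOXM1 had 85.3 and 97.1 CPM in knockdown libraries and 128.3 and 125.4 CPM in control libraries (1.39-fold lower, adjusted p = 5.02e-05). In these 3 genes no knockdown value reached a control value, a separation that the call itself favours. CDC25C did not pass, with 28 and 23 counts in knockdown libraries and 34 and 40 in control libraries (log2 fold change -0.57, 95% interval -1.15 to 0.02).

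All 4 Polo and Aurora pathway genes fell, with a median log2 fold change of -0.76. HMMR, a spindle pole protein, had 34.5 and 29.4 CPM in knockdown libraries and 68.9 and 62.6 CPM in control libraries, a 2.06-fold fall (adjusted p = 6.48e-10). AURKA, the kinase of centrosome maturation and spindle assembly, had 51.7 and 49.5 CPM in knockdown libraries and 87.8 and 84.05 CPM in control libraries (1.70-fold lower, adjusted p = 3.68e-08). TPX2, the activator of AURKA, had 111.9 and 100.8 CPM in knockdown libraries and 179 and 178 CPM in control libraries (1.68-fold lower, adjusted p = 1.49e-08). In all 3 genes both knockdown values lay below both control values, which the call itself favours. PLK1, the Polo kinase that acts from mitotic entry to exit, had 74.1 and 78.5 CPM in knockdown libraries and 92.996 and 105.8 CPM in control libraries (log2 fold change -0.38, adjusted p = 0.000958).

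**Figure D3:**
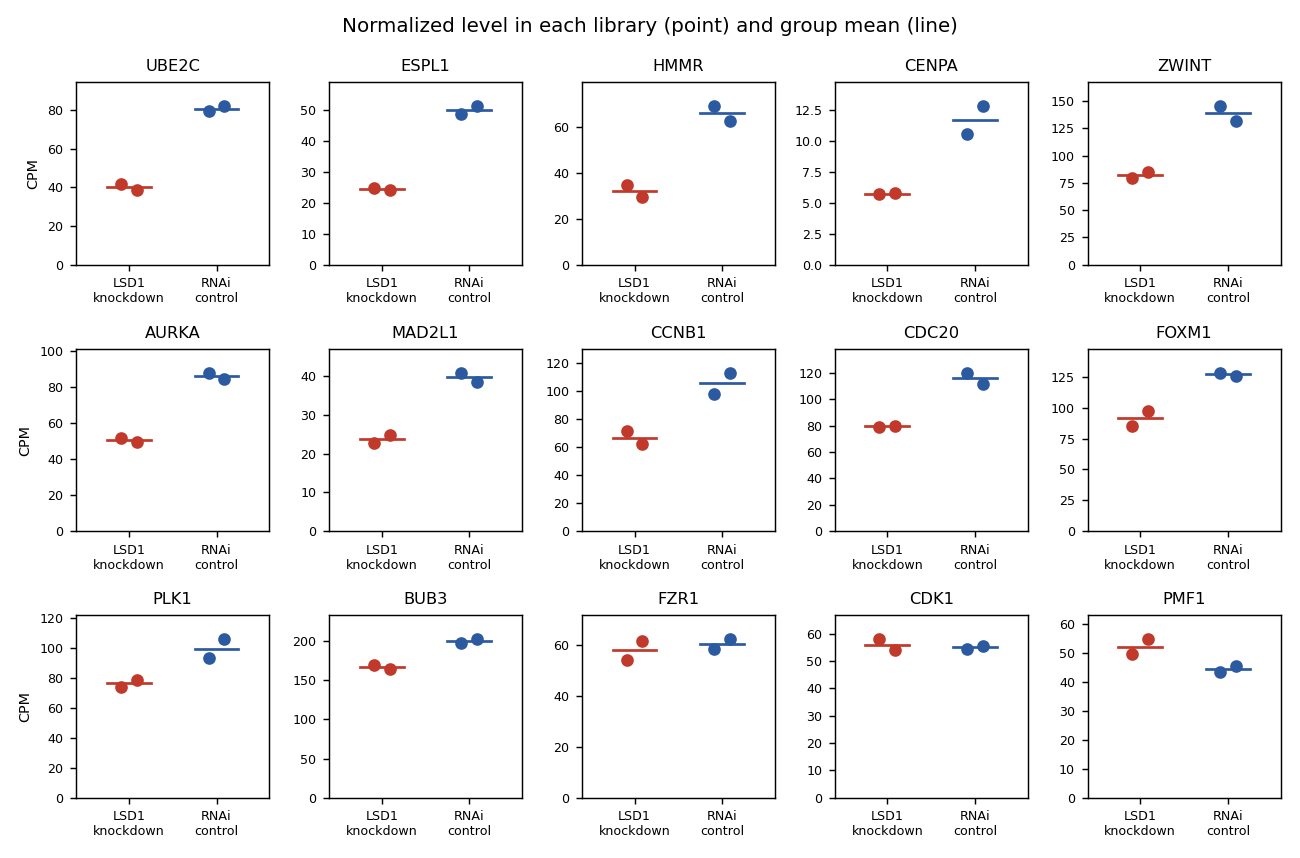
Normalized level in CPM (y axis, from 0) of 15 genes in each of the 2 LSD1 knockdown libraries (red points) and 2 RNAi control libraries (blue points), with the group mean as a line. In the first 12 panels both knockdown points lie below both control points, while FZR1 and CDK1 overlap and PMF1 is higher in knockdown libraries.

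Ratios of partners within a library, which do not depend on how libraries are scaled, were taken for pairs chosen after the values were seen. With 2 libraries a group the smallest two-sided exact permutation p is 0.333, so these ratios carry no test. The log2 ratio of CCNB1 to CDK1 was 0.29 and 0.20 in knockdown libraries and 0.84 and 1.03 in control libraries. The log2 ratio of CENPA to CENPC was -0.61 and -0.68 in knockdown libraries and 0.25 and 0.44 in control libraries. For MAD2L1 to its anchor MAD1L1 the log2 ratio was 0.36 and 0.32 in knockdown libraries and 0.91 and 0.86 in control libraries. In these 3 pairs both knockdown ratios lay below both control ratios. They are shown out of 15 pairs computed, of which 14 had groups that did not overlap, and since the pairs were picked the count is no result. The log2 ratio of SGO2 to SGO1 was 0.41 and 0.51 in knockdown libraries and 0.68 and 0.44 in control libraries, and there the groups overlapped.

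Neighbouring gene lists were read in the same fit, where 17.9% of all tested genes were called lower and 18.2% higher. No list was tested as a set. Of 14 core subunits of the APC/C, 0 were called lower and 1 higher, with a median log2 fold change of -0.03. At an unadjusted p under 0.05 edgeR also had 0 lower and 1 higher, and DESeq2 and limma-voom called 0 lower. The one that rose was ANAPC1, with 129 CPM in both knockdown libraries and 106.5 and 113.02 CPM in control libraries (adjusted p = 0.0283), and DESeq2 did not call it. Condensins, which compact mitotic chromosomes, fell in 6 of 8 cases (3 with DESeq2) with a median of -0.28, led by SMC4 at -0.55 and NCAPG at -0.44. Of 13 cohesin genes 3 were lower and 1 higher, a share of calls near that over all tested genes (17.9% lower and 18.2% higher). The cohesin subunit gene STAG2 rose by 0.46 and ESCO1, an acetyltransferase of cohesin, fell by 0.55 on the log2 scale.

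The list of checkpoint remodelling and CENPA-loading factors held 6 genes that fell of 10 (4 with DESeq2), with a median of -0.42, and edgeR, also at an unadjusted p under 0.05, DESeq2 and limma-voom called 0 higher. HJURP, the chaperone that deposits CENPA, had 35.5 and 32.0 CPM in knockdown libraries and 64.2 and 62.9 CPM in control libraries (1.88-fold lower, adjusted p = 4.39e-09). TRIP13, which takes the mitotic checkpoint complex apart, fell by 0.69 on the log2 scale. Of 9 DREAM and B-MYB genes 4 fell (2 with DESeq2), with MYBL2 at -0.37 and the histone-binding gene RBBP4 at -0.34. The mixed list of mitotic entry brakes, phosphatase genes and phosphatase regulators went both ways, with 4 lower and 2 higher of 9. WEE1, the kinase that inhibits CDK1, had 24.5 and 21.4 CPM in knockdown libraries and 48.8 and 43.3 CPM in control libraries, a 2.01-fold fall (adjusted p = 6.36e-09). ENSA, an inhibitor of the phosphatase PP2A, fell by 0.43, while its paralogue gene ARPP19 rose by 0.31 and the phosphatase gene PPP1CC by 0.23.

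Of 18 G1/S genes tested, 15 were called lower and 1 higher, with a median of -0.53, and RRM1 and FEN1, which serve nucleotide supply and replication, fell by 0.81 and 0.83 on the log2 scale. The gene that rose was CCNE1, a cyclin of S phase entry, at fewer than 2 CPM in each library and not called by DESeq2. The share of S, G2 and M phase cells was not measured here, so its part in the falls was not tested. Of 10 reference genes 3 were lower and 1 higher with a median of -0.06, including HPRT1 at -0.54 and SDHA at 0.32.

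**Figure D4:**
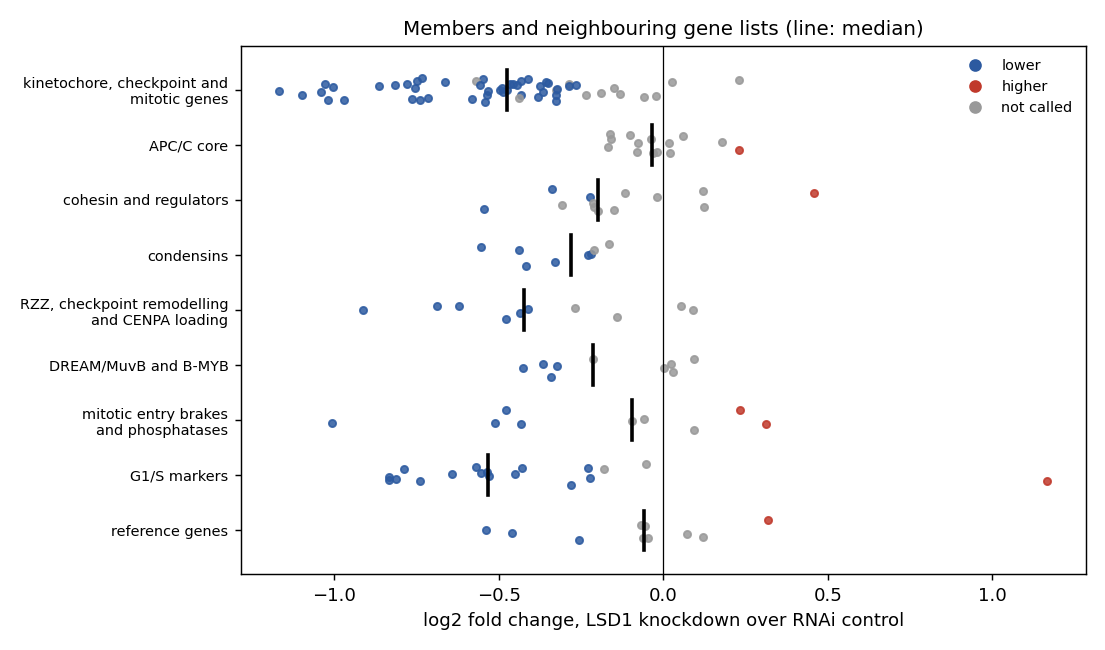
Log2 fold change of LSD1 knockdown over RNAi control (x axis) for each gene (points, blue lower, red higher, grey not called) of the 55 genes and of 8 neighbouring lists (rows), with the median as a black line. The 55 genes have a median of -0.48 and the G1/S markers of -0.53, while the APC/C core lies at -0.03.

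Counting is not stated to use strand, and the exons of 21 of the 55 genes overlap another annotated gene in GENCODE 29, so reads can be shared. For 10 of them the other gene was counted more often. CENPP shares 3719 nucleotides with IPPK, and CENPN 457 with CMC2, which was itself lower by 0.38. FOXM1 shares 781 nucleotides with ITFG2, which was at 0.04. Among the other lists RBBP4 shares 1706 nucleotides with SYNC, which was lower by 0.34, and STAG2 shares 241 with TENM1, which was higher by 0.77. Near-identical stretches of at least 200 nucleotides and 95% identity to other transcripts of genes that do not overlap them were found for CDC20, UBE2S, MAD2L1, MAD1L1, AURKA, CENPC, SKA1 and SPC25, whose levels are less certain for it. Several RefSeq rows were deposited for 27 of the 55 genes. The 49 other rows of genes that fell, counting rows with a mean of at least 20 counts, all had lower knockdown than control levels. Isoform rows count many of the same reads again, so this is no separate check of the falls.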

How the data were processed

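The authors deposited raw read counts per RefSeq transcript for each library, with no header, so the unit was judged from the values, which are whole numbers whose totals differ between libraries. Per the submitters' processing notes, TopHat2, HOMER, edgeR, DESeq 1.8.3 and hg19 were used, without roles. The kit, its strandedness and the counting settings were not given in the sources used here. Symbols for the 38767 rows came from RefSeq and GENCODE tables, and 1090 rows without one (1.38% to 1.40% of counts) were left out. The row with the highest mean stood for each symbol, since isoform rows count shared reads again.

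Counts were normalized by TMM, filtered with filterByExpr (minimum count 10, total 15) and tested with edgeR 4.0.16 (quasi-likelihood, group as the only term) with Benjamini-Hochberg adjustment over 13247 genes. Intervals of log2 fold changes are 95%. The fit was repeated in DESeq2 1.42.0 and limma-voom (limma 3.58.1), with RLE or no scaling, without or with a 1 CPM filter, with the replicate number as a block, with rows summed per symbol, and without each library. Similar transcripts were searched with blastn in GENCODE 29. Genes with per-library values were the up to 4 called genes with the smallest adjusted p per role class. Genes that did not pass were added, some chosen after their values were seen. In each neighbouring list the up to 2 called genes with the smallest adjusted p were named, and ARPP19, PPP1CC and CCNE1 after their values were seen. Members, lists and tests were chosen with earlier results of these data known.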

Additional observations from a re-analysis of the deposited data

How the results depend on the processing

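The number of the 55 genes called lower was 43 in the reported fit and 35 to 41 when a library was left out, where the lone sample of a group is assumed to vary like the other group. It was 37 with DESeq2, 39 without a normalization factor and 40 to 43 in the other settings, and 32 genes were called lower in all 12 alternatives. The number called higher was 0 in the reported fit and 1, PMF1, without a normalization factor (adjusted p = 0.0273), with the replicate block (adjusted p = 0.0362) and with summed rows (adjusted p = 0.0485). It ranged from 0 to 1 when a library was left out. The median log2 fold change of -0.48 became -0.44 without a normalization factor and ranged from -0.51 to -0.44 when a library was left out. KDM1A kept its direction and call in all 12 alternatives. Among genes described by name, CENPC changed sign without a normalization factor (0.013). When a library was left out, its log2 fold change ranged from -0.071 to 0.026, that of FZR1 from -0.156 to 0.026 and that of CDK1 from -0.033 to 0.079, and none passed the threshold. The cause was not tested. Replicate numbers share no stated source. Same-numbered libraries deviated together with a correlation of 0.138 over 10935 genes, and with the replicate block 43 of the 55 genes were called lower with a median of -0.48, with 2629 higher and 2630 lower calls over all genes in place of 2413 and 2375. Depth limits the precision of rare genes: CDC25C, SKA1 and CENPI had standard errors of 0.288, 0.225 and 0.215.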
